A study of Mus musculus with 12 samples.

Results

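The mouse Hox genes of the 4 clusters and the caudal-related genes Cdx1, Cdx2 and Cdx4 were followed in day 7 eye organoids. Members were the protein-coding genes with a Hoxa, Hoxb, Hoxc or Hoxd symbol and those 3 Cdx genes, 42 of the 54232 gene IDs in the count tables. They comprised 11 Hoxa, 10 Hoxb, 9 Hoxc, 9 Hoxd and 3 Cdx genes. The organoids were grown from mouse embryonic stem cells of 1 line, heterozygous for a GFP knock-in at Rax, in all 3 groups, so every group, controls included, carried 1 modified Rax allele. LDHi+lactate organoids received 20 µM GNE-140, an inhibitor of lactate dehydrogenase, for 3 days together with 25 mM sodium L-lactate, for which the labels give a pretreatment of 12 hours. LDHi organoids received 20 µM GNE-140 for 3 days, and control organoids received neither agent. Each group had 4 RNA-seq libraries. Replicates 1 and 2 of every group carry the cell type label eye organoid and replicates 3 and 4 the label retina progenitors, and the 2 pairs are called set A and set B below.

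Hox genes encode homeodomain transcription factors that give cells their position along the head-to-tail axis. Within a cluster the genes stand in the order in which they are used: paralog groups at the 3′ end are switched on first and in the hindbrain, and those at the 5′ end later and in the tail. The forebrain and the eye, which arise in front of the hindbrain, are normally formed with little or no Hox expression. Retinoic acid, Wnt and FGF signals open the clusters from the 3′ end. Cdx proteins, which are themselves targets of Wnt signalling, activate central Hox genes in the trunk, and Cdx2 is also a master regulator of trophectoderm and of intestinal epithelium. Hox proteins bind DNA together with the TALE homeodomain proteins of the Pbx, Meis and Pknox families. Hoxa, Hoxb, Hoxc and Hoxd genes spanned chr6:52155590-52260880, chr11:96194316-96368256, chr15:102921103-103036852 and chr2:74668310-74765142 (mm10).

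The promoters of the 3 genes that frame the results are shown first, from 250 bases before to 50 after the annotated start (RefSeq, GRCm38.p6), because Cdx2 rose in LDHi organoids while Hoxb1 and Hoxa2 fell. Capitals mark matches on either strand to TGATNNAT, the core of the element bound by Hox and Pbx proteins together, and to TGACAG, the core bound by Meis proteins. The Cdx2 promoter, chr5:147307200-147307499 on the minus strand, held neither. The Hoxb1 promoter, chr11:96365508-96365807 on the plus strand, held 1 Hox-Pbx match at -162 from the start. The Hoxa2 promoter, chr6:52164782-52165081 on the minus strand, held a Hox-Pbx match at -111, read on the opposite strand, and a Meis match at -44.
Cdx2: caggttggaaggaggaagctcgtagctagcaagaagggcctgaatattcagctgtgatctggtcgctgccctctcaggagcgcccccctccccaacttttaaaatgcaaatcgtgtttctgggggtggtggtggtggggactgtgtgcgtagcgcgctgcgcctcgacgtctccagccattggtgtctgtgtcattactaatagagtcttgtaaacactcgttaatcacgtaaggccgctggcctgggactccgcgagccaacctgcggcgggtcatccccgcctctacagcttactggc
Hoxb1: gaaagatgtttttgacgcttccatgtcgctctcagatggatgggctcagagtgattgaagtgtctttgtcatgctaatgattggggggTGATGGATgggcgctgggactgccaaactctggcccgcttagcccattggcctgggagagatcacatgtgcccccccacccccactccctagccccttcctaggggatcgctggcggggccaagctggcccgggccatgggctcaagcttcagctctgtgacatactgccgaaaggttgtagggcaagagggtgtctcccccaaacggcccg
Hoxa2: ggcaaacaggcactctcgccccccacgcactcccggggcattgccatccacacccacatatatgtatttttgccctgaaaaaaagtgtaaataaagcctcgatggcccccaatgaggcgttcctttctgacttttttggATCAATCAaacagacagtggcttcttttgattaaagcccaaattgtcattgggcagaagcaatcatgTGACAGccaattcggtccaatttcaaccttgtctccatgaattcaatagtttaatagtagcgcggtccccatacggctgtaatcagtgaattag

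Promoters of 24 of the 42 members were taken from the RefSeq table, as 26 windows of 300 bases. Chromosome 18, which holds Cdx1, was left out of the member promoters. TGATNNAT was in 4 of the 26 windows (Hoxa2, Hoxb1, Hoxb8, Hoxd11), against 8.85% of all 32851 promoters. TGACAG was in 2 (Hoxa2, Hoxa3), against 19.2% of all promoters. Of the other motifs searched on both strands, the Cdx core TTTATG was in 5 windows (11.9% of all promoters), the TCF/LEF core CTTTGA in 4 (16.0%) and the retinoic acid receptor core AGGTCA in 7 (16.3%). Some of these motifs can share end letters, such as TGA in CTTTGA and TGATNNAT, and a match is a match of letters only.

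Read depth was 22174002 to 46881759 counts per library in LDHi, 29255114 to 42489921 in LDHi+lactate and 25209097 to 48271386 in control. Levels are given as CPM, the usual depth-scaled counts, on library sizes scaled by the TMM method, and CPM per kb, divided by the exon length, where genes are compared with each other. Retinal progenitor markers were present in all groups, with a summed level over 6 genes of 594 to 864 CPM in LDHi+lactate, 416 to 501 CPM in LDHi and 587 to 1201 CPM in control. At least 1 count was found for 41 of the 42 members, at least 10 counts over the 12 libraries for 37, and counts in all 12 libraries for 24. The filter on low counts required about 0.298 CPM in enough libraries, and 17721 genes passed it.

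Of the 42 members, 26 passed the filter: 2 of 3 Cdx, 5 of 11 Hoxa, 9 of 10 Hoxb, 5 of 9 Hoxc and 5 of 9 Hoxd genes. By position, 10 of 12 genes of paralog groups 1-4 passed, 11 of 15 of groups 5-9 and 3 of 12 of groups 10-13. Only 8 members stood at the minimum in all 12 libraries, among them Cdx1, Cdx2, Hoxa3, Hoxb1, Hoxb4, Hoxb9 and Hoxc4. Hoxb3, Hoxb5, Hoxb7, Hoxc5, Hoxd1 and Hoxd3 reached it in at most 1 LDHi library and in 3 or 4 control libraries, so they entered the test mainly through the control group.

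In control organoids the abundant Hox transcripts included those of 3′ genes. On the per-length scale Hoxb1 stood at 3.81 and Hoxa2 at 3.43 CPM per kb, a difference smaller than the spread between libraries, and Cdx1 and Cdx2 stood at 4.58 and 2.96 CPM per kb. The next Hoxb gene, Hoxb9, averaged 1.39 CPM per kb, which rested on 1 library. The leading Hoxc genes were Hoxc4 at 0.823 and Hoxc5 at 0.299 CPM per kb, and the leading Hoxd genes were Hoxd9 at 0.350 and Hoxd3 at 0.214 CPM per kb. Of the exon bases of Hoxd3, 62.3% overlap other genes on the same strand, so reads there could have been left unassigned. The order of Hoxd9 and Hoxd3 is therefore not settled.

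**Figure D1:**
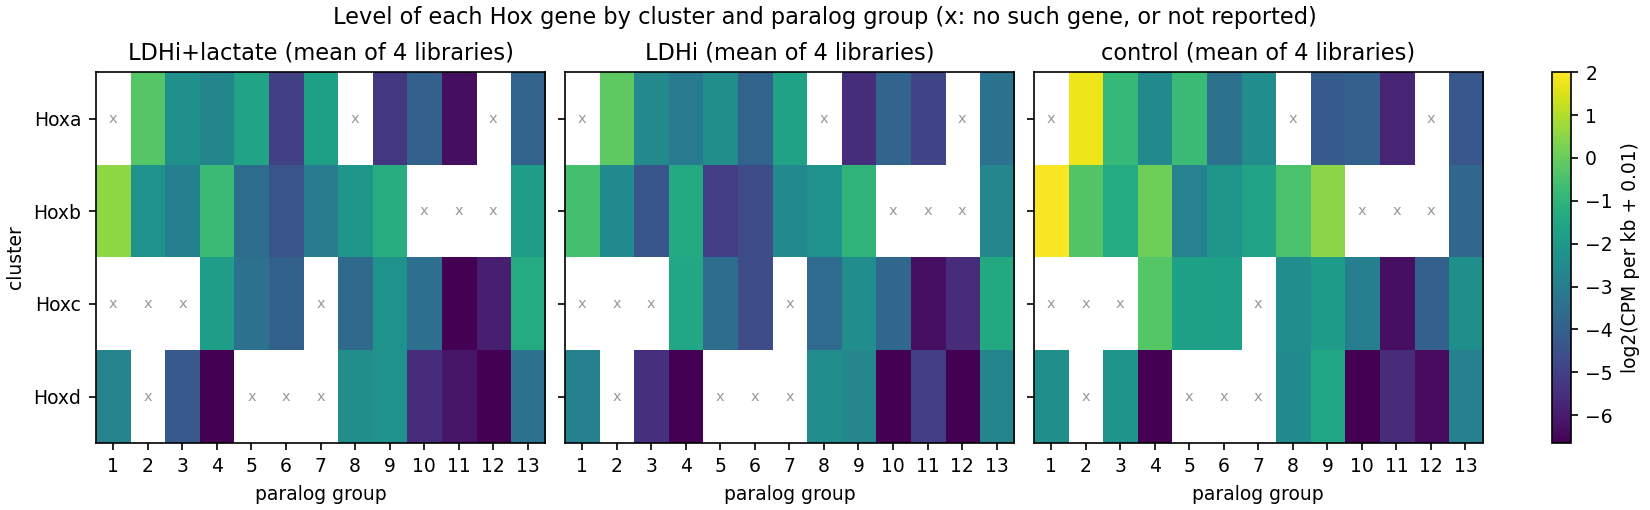
Mean level of the Hox genes reported, as log2(CPM per kb + 0.01), with clusters as rows and paralog groups 1 to 13 as columns, in LDHi+lactate, LDHi and control organoids (4 libraries each). The brightest cells are Hoxa2 and Hoxb1 in control, and most genes of paralog groups 10-13 are near the bottom of the scale in all 3 groups.

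The 16 members that were not tested had 0 to 105 counts over the 12 libraries. Hoxd4, a hindbrain and neck-level gene, was listed at 0 in every library, which allows up to 3 of the 421266237 counts of the 12 libraries together, and 52.3% of its exon bases lie on the same strand as other annotated genes, so reads there could have been left unassigned. Hoxd12 had 1 count, Hoxc11 had 2, Hoxd10 had 3, Hoxa11 had 9, Hoxc12 had 11, Hoxa6 had 17 and Hoxd11 had 19. Cdx4 had 42 counts, Hoxa9 57, Hoxc10 60, Hoxa10 68, Hoxa13 69, Hoxb6 70, Hoxa4 90 and Hoxc6 105. Most of these genes are used in the trunk, limb or tail of the embryo. Hoxc6, a thoracic gene, had 1 to 5 counts in the LDHi libraries, against 31 and 35 counts in control replicates 3 and 4 and 4 and 5 counts in control replicates 1 and 2.

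To ask which members changed when lactate dehydrogenase was inhibited, LDHi was compared with control. Several 3′ Hox genes fell and Cdx2 rose. Without a term for the replicate number, Hoxa2, Hoxa3, Hoxb1, Hoxb2, Hoxb3 and Hoxd3 were lower and Cdx2 was higher in LDHi (edgeR quasi-likelihood test, Benjamini-Hochberg adjusted over 17721 genes, threshold 0.05). These are 6 lower and 1 higher of 26 members tested, where 2.18% of all genes tested were lower and 0.909% higher. Same-numbered libraries of the 3 groups deviated together, and with the replicate number as a block 11 members were lower (10.1% of all genes) and 2 were higher (9.85% of all genes). The block added Hoxb4, Hoxb5, Hoxb8, Hoxc4 and Hoxc5 to the lower members and Hoxc13 to the higher ones. The members that fell without the block all belong to paralog groups 1-3, and 2 of them, Hoxb3 and Hoxd3, entered the test mainly through the control group. Of those that the block added, Hoxb5 and Hoxc5 did so as well. Neither count of lower members is therefore read against the share of all genes.

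Cdx2, a homeobox gene of the posterior body, gut and trophectoderm, had 15.6, 14.6, 13.5 and 13.7 CPM in LDHi, against 6.74, 6.64, 5.61 and 7.78 CPM in control. The groups did not overlap, and every LDHi library was above every control library. Its log2 fold change was 1.10 ± 0.16 (SE, n = 4 each; adjusted p = 0.00977 by edgeR), and the two-sided exact permutation test gave p = 0.0286, the smallest that 4 against 4 libraries allow. The lack of overlap fixes that permutation value. The Cdx2 call by edgeR was also refitted with libraries left out. It kept its call without any 1 library, with adjusted p between 0.00899 and 0.0366 by edgeR. Cdx1, a Wnt and retinoic acid target, had 12.8, 6.31, 22.5 and 13.1 CPM in LDHi, against 5.14, 12.5, 10.6 and 3.83 CPM in control. These groups overlapped, and the log2 fold change of 0.77 ± 0.43 did not pass (adjusted p = 0.423 by edgeR). Cdx4, an X-linked gene of the tail bud, had 0 to 8 counts per LDHi library and 0 to 4 per control library.

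Paralog group 1 genes are the first to be activated by retinoic acid and act in the hindbrain. Hoxb1, which specifies a single hindbrain segment and maintains its own transcription through Hox-Pbx elements, had 1.49, 1.34, 2.72 and 0.729 CPM in LDHi, against 5.08, 13.3, 5.99 and 11.1 CPM in control. The groups did not overlap, and the log2 fold change was -2.51 ± 0.55 (adjusted p = 0.0306 by edgeR). Hoxd1 averaged 0.242 CPM in LDHi and 0.350 CPM in control and did not pass.

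Hoxa2 and Hoxb2, the paralog group 2 genes of the anterior hindbrain, both fell. Hoxa2, which reaches farthest forward of all Hox genes and patterns the second pharyngeal arch, had 2.16, 1.40, 1.29 and 1.54 CPM in LDHi, against 4.98, 6.84, 4.15 and 8.36 CPM in control. Its log2 fold change was -1.92 ± 0.46 (adjusted p = 0.0448 by edgeR), close to the threshold, and 0.00455 with the block. Hoxb2 had 0.432, 0.646, 0.322 and 0.998 CPM in LDHi, against 1.84, 2.74, 1.73 and 4.76 CPM in control. Its log2 fold change was -2.20 ± 0.52 (adjusted p = 0.0417 by edgeR). In neither gene did the groups overlap.

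The group 3 genes pattern the posterior hindbrain and pharyngeal tissues. Hoxa3 had 1.34, 0.883, 0.737 and 0.845 CPM in LDHi, against 2.52, 2.74, 2.84 and 5.11 CPM in control. Hoxb3 had 0.264, 0.108, 0 and 0.307 CPM in LDHi, against 1.17, 1.28, 1.498 and 2.63 CPM in control, and the 0 allows up to 0.138 CPM in that library. Hoxd3 had 0.0720, 0.0646, 0 and 0.0768 CPM in LDHi, against 0.655, 0.501, 1.15 and 1.28 CPM in control. All 3 genes were lower in every LDHi library than in any control library. The log2 fold changes were -1.77 ± 0.38 for Hoxa3, -3.20 ± 0.63 for Hoxb3 and -3.86 ± 0.81 for Hoxd3 (adjusted p = 0.0296, 0.0215 and 0.0261 by edgeR). Part of these genes is shared with other annotations. Under the antisense RNA Hoxb3os lie 52.9% of the exon bases of Hoxb3 and 27.3% of those of Hoxb2. Of those of Hoxa3, 27.1% overlap other genes, mainly Hoxaas2. Of those of Hoxd3, 62.8% overlap other genes, 62.3% on the same strand, where reads could have been left unassigned. No source used here states whether the counting used strand, so reads of sense and antisense partners may not be separated.

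In paralog groups 4 and 5 the falls passed with the block only. Hoxb4, a gene of the posterior hindbrain and of blood stem cells, had 0.384, 0.431, 1.10 and 1.96 CPM in LDHi, against 2.33, 1.46, 2.61 and 4.41 CPM in control. Each LDHi library was below the control library of its number, although the ranges overlapped, and the log2 fold change was -1.51 ± 0.54 (adjusted p = 0.169 by edgeR) without and -1.64 ± 0.26 (adjusted p = 0.00202) with the block. Hoxc4 had 0.624, 0.409, 1.15 and 1.38 CPM in LDHi, against 1.66, 1.28, 2.61 and 2.90 CPM in control, with adjusted p = 0.133 by edgeR without and 0.00306 with the block. Like Hoxb4, it was lower in 4 of 4 same-numbered pairs. Hoxb5 had 0.1200, 0.0215, 0 and 0.0768 CPM in LDHi, against 0.594, 0.305, 0.230 and 0.348 CPM in control (adjusted p = 0.0708 by edgeR without and 0.00704 with the block). Hoxc5 had 0.0480, 0.172, 0.230 and 0.499 CPM in LDHi, against 0.881, 0.893, 1.04 and 0.890 CPM in control (adjusted p = 0.0918 by edgeR without and 0.0146 with the block), and it lost the blocked call without replicate 1 (adjusted p = 0.0793 by edgeR) or replicate 2 (0.0712). Both act in the neck and upper trunk, and in both the groups did not overlap. Hoxa5, which acts in the lung and cervical skeleton, averaged 0.340 ± 0.087 CPM in LDHi and 1.10 ± 0.67 CPM in control (SD, n = 4 each). Its groups did not overlap either, but the adjusted p was 0.163 by edgeR without and 0.0965 with the block.

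Members whose 4 LDHi libraries lay below all 4 control libraries numbered 9 (Hoxa2, Hoxa3, Hoxa5, Hoxb1, Hoxb2, Hoxb3, Hoxb5, Hoxc5, Hoxd3) of 26, where 5.41% of all genes tested were separated this way, and 1 (Cdx2) lay above, where 4.26% of all genes were. For each of these 10 members the two-sided exact permutation test gave p = 0.0286. Separation of 4 against 4 libraries fixes that value in advance, so it adds nothing to the separation. Over the 10 tested genes of paralog groups 1-4 the log2 fold changes were all negative, with a median of -1.85, and over the 11 of groups 5-9 the median was -1.31 with 9 negative. The 3 tested genes of groups 10-13 had a median of 0.97, or 0.66 with the block, and none of them passed without the block. Both medians are the values of Hoxb13, which ran opposite ways in set A (-0.77) and set B (3.06). The median of all genes tested was 0.01. Hoxb3, Hoxb5, Hoxc5 and Hoxd3, 4 of the 9 separated members, entered the test mainly through the control group, where they are high, so the counts and medians here describe the genes tested and are not read against the shares of all genes. The summed level of all 12 genes of groups 1-4, tested or not, was 12.0 ± 3.1 CPM in LDHi and 37.1 ± 9.1 CPM in control (SD, n = 4 each), with ranges of 7.97 to 15.1 and 27.0 to 45.4 CPM. In bulk RNA, fewer Hox-expressing cells and less Hox RNA per cell cannot be told apart.

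**Figure D2:**
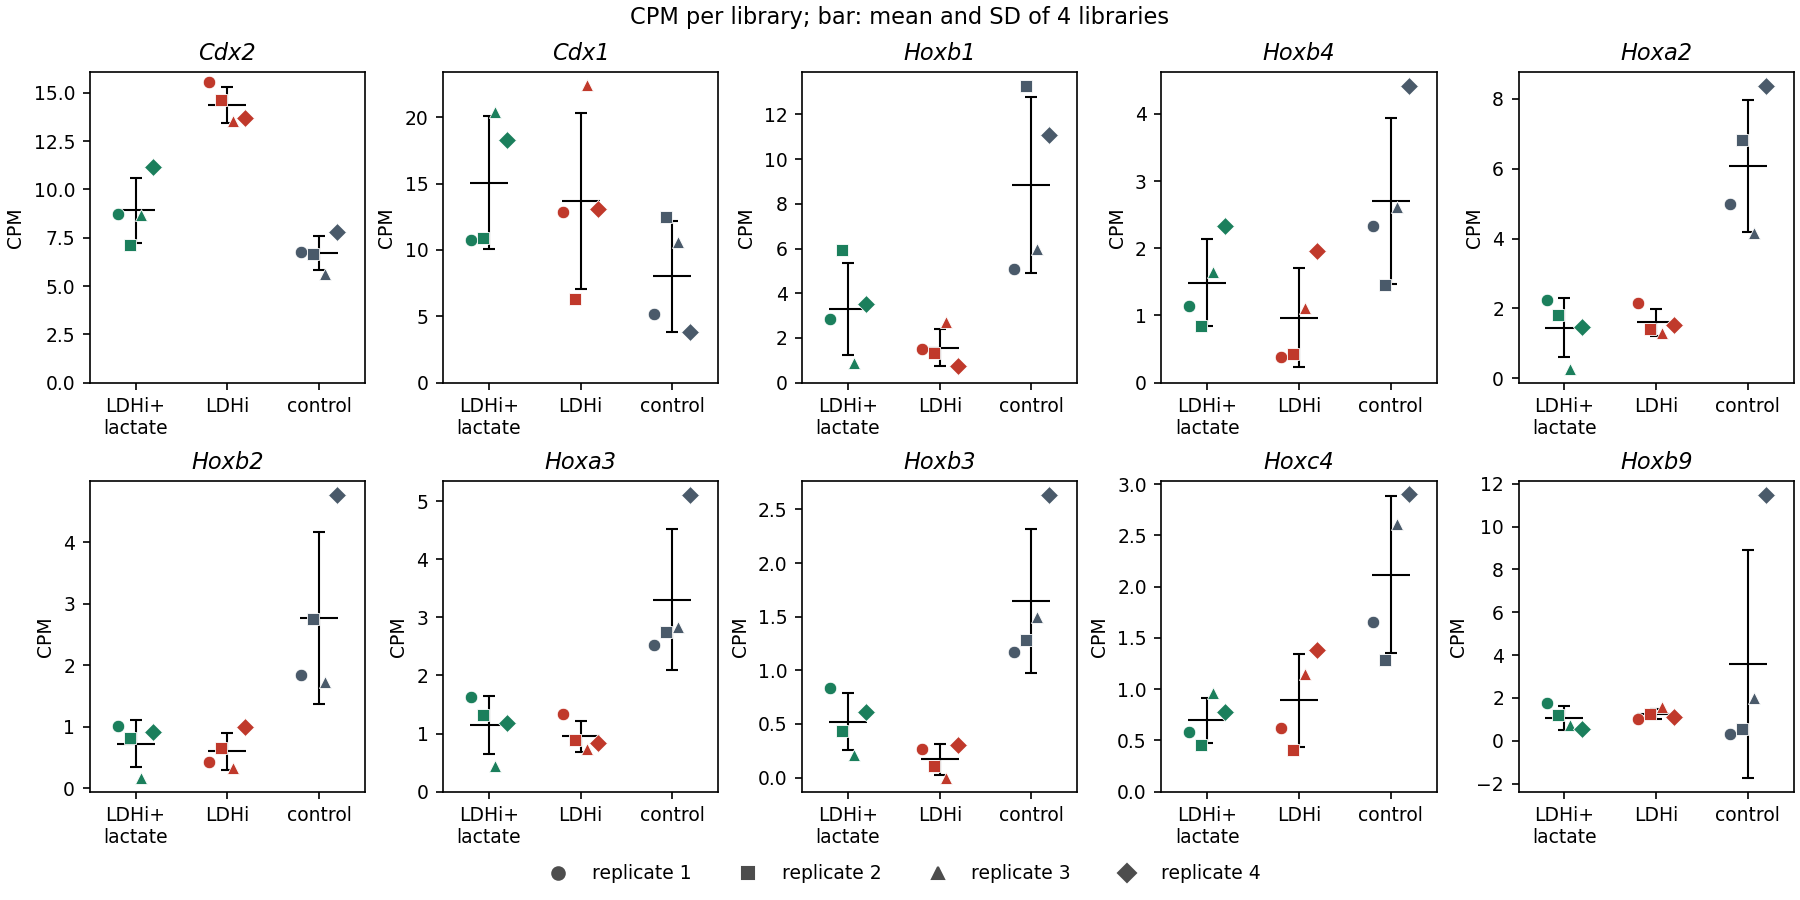
CPM of 10 members in each library (marker shape: replicate number) with the mean and SD of 4 libraries, for LDHi+lactate, LDHi and control. Cdx2 was between 13.5 and 15.6 CPM in LDHi, above both other groups, Hoxa2, Hoxb2, Hoxa3 and Hoxb3 were lower in both treated groups than in any control library, and Hoxb9 was high in control replicate 4 alone.

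The central and posterior genes did not follow 1 pattern. Hoxb8, a trunk gene, had 0.480, 0.237, 0.460 and 0.998 CPM in LDHi, against 0.410, 0.849, 2.04 and 4.06 CPM in control, and it passed with the block only (log2 fold change -1.52 ± 0.40, adjusted p = 0.0232 by edgeR), a call lost in 3 of the 4 fits that left out 1 replicate number (adjusted p up to 0.137). Hoxb9 had 1.03, 1.23, 1.57 and 1.11 CPM in LDHi, against 0.328, 0.544, 1.997 and 11.5 CPM in control, so its mean difference came from control replicate 4. Hoxc13, a gene of hair, nail and tail, had 0.552, 0.689, 1.61 and 0.806 CPM in LDHi, against 0.266, 0.414, 0.806 and 0.348 CPM in control. It was higher in 4 of 4 same-numbered pairs and passed with the block (log2 fold change 0.97 ± 0.29, adjusted p = 0.0387 by edgeR), but not when any 1 replicate number was left out of that fit (adjusted p of 0.0911 to 0.134). Hoxa7, Hoxb7, Hoxb13, Hoxc8, Hoxc9, Hoxd1, Hoxd8, Hoxd9 and Hoxd13 did not pass in either fit, with log2 fold changes between -1.31 and 0.97.

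The count of lower members without the block depended on single libraries: leaving out LDHi replicate 2 or control replicate 3 left 0, control replicate 1 or 4 or LDHi replicate 4 left 1, LDHi replicate 1 or 3 left 2, and control replicate 2 or LDHi+lactate replicate 4 left 4. With the block the count was 8 to 10 when any 1 replicate number was left out, and Hoxa2, Hoxa3, Hoxb1, Hoxb2, Hoxb3 and Hoxd3 passed in each of those 4 fits.

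**Figure D3:**
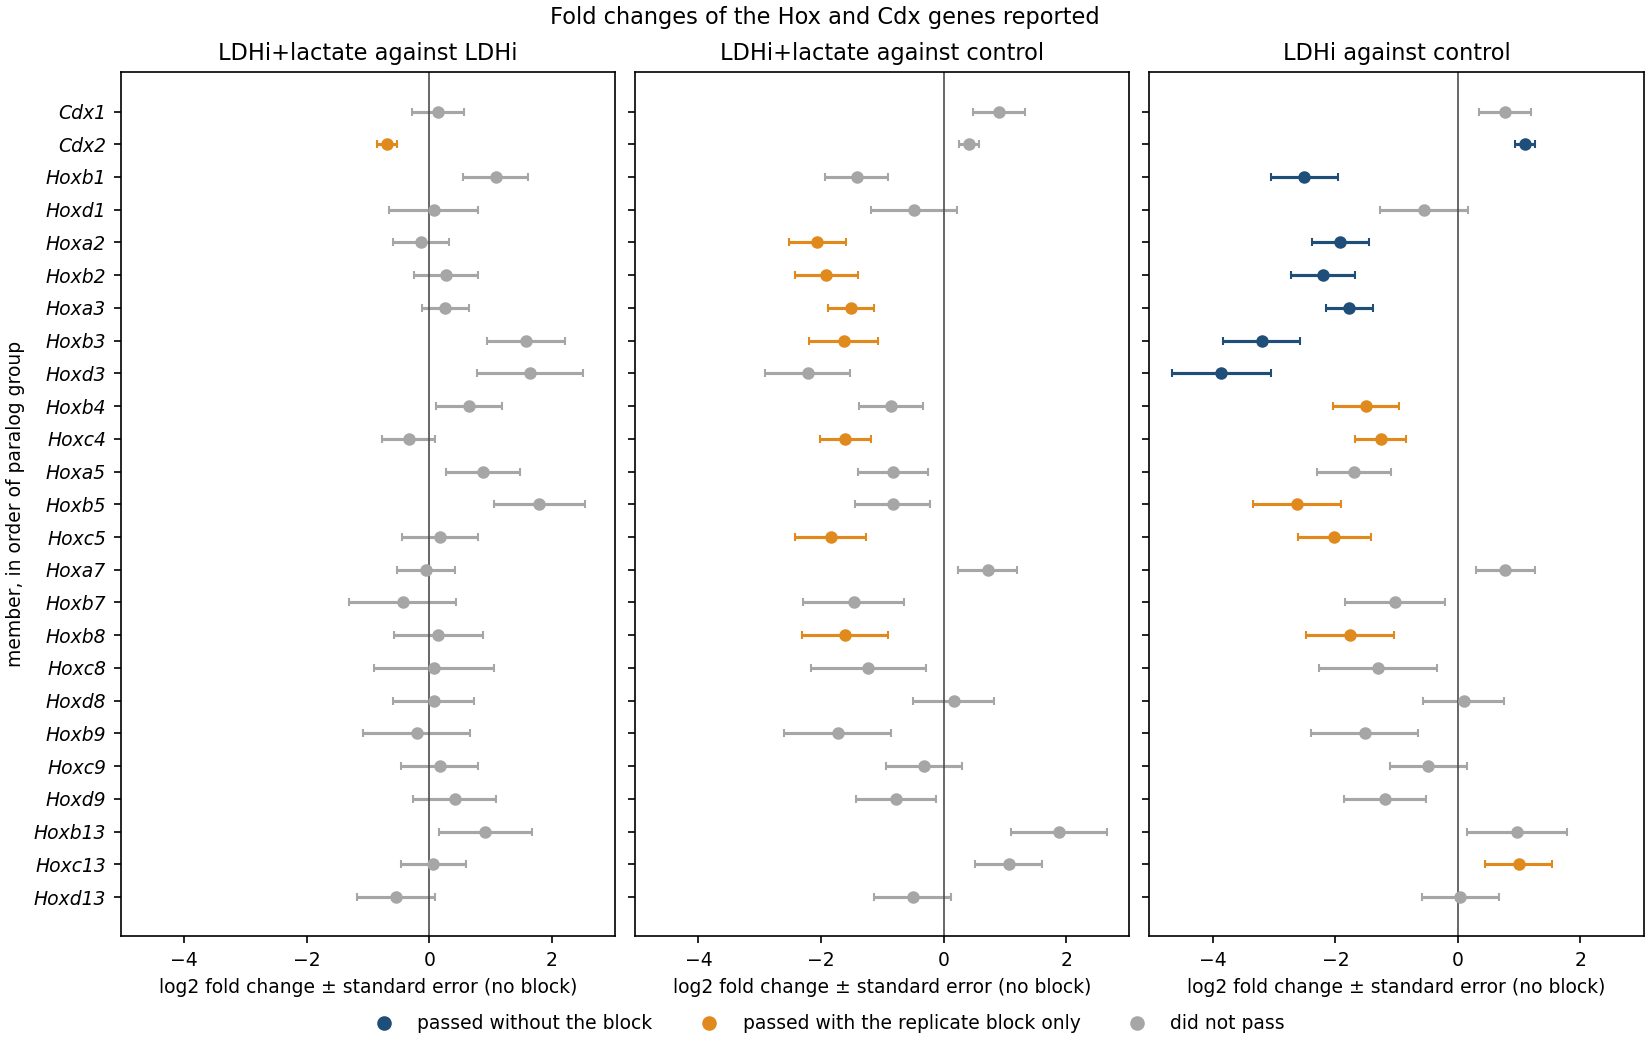
log2 fold change ± SE without the block for the tested members reported, ordered by paralog group, for LDHi+lactate against LDHi, LDHi+lactate against control and LDHi against control. In LDHi against control the values run from -3.86 for Hoxd3 to 1.10 for Cdx2, and in LDHi+lactate against LDHi only Cdx2 passed, with the block.

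To ask which of these members responded to lactate under the inhibitor, LDHi+lactate was compared with LDHi, which shares its LDHi libraries with the comparison above. Cdx2 was lower with lactate, and no Hox gene passed. Without the block no member was called (0 of 26 higher and 0 lower, where 0.0% of all genes tested were higher and 0.0% lower by edgeR), 3 members had an unadjusted p under 0.05, and DESeq2 called 1 member lower (Cdx2). With the block 1 member was lower, where 0.0677% of all genes were lower, and none was higher, where 0.57% of all genes were.

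Cdx2 had 8.72, 7.13, 8.65 and 11.2 CPM in LDHi+lactate, against 15.6, 14.6, 13.5 and 13.7 CPM in LDHi. Each LDHi+lactate library was below every LDHi library, as was so for 0.587% of all genes tested. The log2 fold change was -0.69 ± 0.16 (adjusted p = 0.601 by edgeR) without and -0.70 ± 0.13 (adjusted p = 0.0455) with the block, and the exact permutation test gave p = 0.0286, which the separation of the libraries fixes. The blocked call was lost in 3 of 4 fits that left out 1 replicate number (adjusted p of 0.195 to 0.294 by edgeR). Cdx1 had 10.7, 10.9, 20.4 and 18.3 CPM in LDHi+lactate, against 12.8, 6.31, 22.5 and 13.1 CPM in LDHi, and did not pass (log2 fold change 0.14 ± 0.42).

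No Hox gene had its LDHi+lactate libraries all above or all below its LDHi libraries. Hoxb3 had 0.839, 0.432, 0.206 and 0.608 CPM in LDHi+lactate, against 0.264, 0.108, 0 and 0.307 CPM in LDHi. Hoxb5 had 0.303, 0.216, 0.0343 and 0.270 CPM in LDHi+lactate, against 0.1200, 0.0215, 0 and 0.0768 CPM in LDHi. Hoxb3, Hoxb4, Hoxb5 and Hoxb13 were higher in 4 of 4 same-numbered pairs, and none of these genes passed in either fit. Without the block the log2 fold changes of Hoxb3, Hoxb4 and Hoxb5 were 1.58 ± 0.63, 0.65 ± 0.54 and 1.79 ± 0.74. With the block their adjusted p was 0.263, 0.280 and 0.236 by edgeR. Hoxb13 had 0.163, 0.783, 1.06 and 0.372 CPM in LDHi+lactate, against 0.120, 0.151, 0.875 and 0.192 CPM in LDHi. Hoxb1 had 2.87, 5.91, 0.892 and 3.52 CPM in LDHi+lactate, against 1.49, 1.34, 2.72 and 0.729 CPM in LDHi, higher in 3 of 4 pairs, with a log2 fold change of 1.09 ± 0.53 that did not pass. Hoxa2 had 2.24, 1.81, 0.275 and 1.45 CPM in LDHi+lactate, against 2.16, 1.40, 1.29 and 1.54 CPM in LDHi, with a log2 fold change of -0.14 ± 0.46. The log2 fold change was 0.26 ± 0.38 for Hoxa3, 0.28 ± 0.52 for Hoxb2, -0.34 ± 0.43 for Hoxc4 and 1.65 ± 0.86 for Hoxd3, which was higher in 3 of 4 pairs, and none of these passed. Differences in response between these genes were not tested.

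The comparison of LDHi+lactate with control, which shares samples with both others, asked which members still differed from untreated organoids. With the block, 7 of 26 members were lower (Hoxa2, Hoxa3, Hoxb2, Hoxb3, Hoxb8, Hoxc4 and Hoxc5), where 3.87% of all genes were lower, and none was higher, where 4.18% of all genes were. Without the block no member was called (0 higher and 0 lower by edgeR, where 0.0% of all genes were called either way), 11 members had an unadjusted p under 0.05, and DESeq2 called 4 lower. All 4 LDHi+lactate libraries lay below all 4 control libraries for Hoxa2, Hoxa3, Hoxb2, Hoxb3, Hoxc4, Hoxc5 and Hoxd3, as for 2.11% of all genes tested. Among the members named here, Hoxb3, Hoxc5 and Hoxd3 entered the test mainly through the control group, where they are high. The counts of lower members are therefore not read against the shares of all genes.

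Hoxa2 had 2.24, 1.81, 0.275 and 1.45 CPM in LDHi+lactate, against 4.98, 6.84, 4.15 and 8.36 CPM in control, a log2 fold change of -2.17 ± 0.36 with the block (adjusted p = 0.0118 by edgeR). Hoxb2 had 1.003, 0.810, 0.172 and 0.913 CPM in LDHi+lactate, against 1.84, 2.74, 1.73 and 4.76 CPM in control (-1.91 ± 0.33, adjusted p = 0.0131 by edgeR). Hoxc4 had 0.583, 0.459, 0.961 and 0.777 CPM in LDHi+lactate, against 1.66, 1.28, 2.61 and 2.90 CPM in control (-1.58 ± 0.23, adjusted p = 0.00701 by edgeR). These 3 were the calls that held in 3 of 4 fits without 1 replicate number. Hoxa3, Hoxb3 and Hoxc5 lost the call in all 4 such fits and Hoxb8 in 3 (adjusted p up to 0.204), and the count of lower members was then 1 to 3.

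Hoxa3 had 1.63, 1.32, 0.446 and 1.18 CPM in LDHi+lactate, and its blocked log2 fold change against control was -1.56 ± 0.33 (adjusted p = 0.0231 by edgeR). That of Hoxb3 was -1.70 ± 0.45 (adjusted p = 0.0461), of Hoxc5 -1.98 ± 0.51 (adjusted p = 0.0420) and of Hoxb8 -1.47 ± 0.39 (adjusted p = 0.0483), all by edgeR. Hoxb1 (-1.44 ± 0.48, adjusted p = 0.0865) and Hoxd3 (-2.32 ± 0.64, adjusted p = 0.0514) did not pass. Cdx2 averaged 8.91 ± 1.67 CPM in LDHi+lactate and 6.69 ± 0.89 CPM in control, higher in 4 of 4 same-numbered pairs, without passing (0.41 ± 0.13 and adjusted p = 0.0830 by edgeR with the block). The summed level of groups 1-4 was 18.3 ± 4.4 CPM in LDHi+lactate, 12.0 ± 3.1 CPM in LDHi and 37.1 ± 9.1 CPM in control. That of groups 5-9 was 5.68 ± 1.67, 5.24 ± 1.42 and 12.6 ± 10.1 CPM in the same order, and that of the 3 Cdx genes was 24.1 ± 6.1, 28.2 ± 6.3 and 14.7 ± 3.6 CPM.

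Of the 26 members tested, some differed between the 2 sets of replicates. With treatment in the model, 6 members were higher in set B than in set A (Hoxb4, Hoxb8, Hoxc4, Hoxc13, Hoxd8 and Hoxd9), where 13.7% of all genes were higher, and none was lower, where 14.3% of all genes were (the lowest adjusted p among members with a negative difference was 0.367 by edgeR, for Hoxb5). The log2 differences were 1.23 ± 0.26 for Hoxb4, 0.97 ± 0.19 for Hoxc4, 1.63 ± 0.39 for Hoxb8, 1.66 ± 0.28 for Hoxd8, 1.42 ± 0.40 for Hoxd9 and 1.12 ± 0.32 for Hoxc13 (adjusted p of 0.00581, 0.00382, 0.00974, 0.00149, 0.0228 and 0.0241 by edgeR). Genes of paralog groups 1-3 did not pass, with values from -0.46 ± 0.36 for Hoxa2 to 0.81 ± 0.55 for Hoxd1. In later groups Hoxa5 (-0.21 ± 0.50) and Hoxb5 (-0.69 ± 0.53) had negative values, and the remaining genes had positive values that did not pass. Whether the difference depends on position in the cluster was not tested. Hoxc4 had 0.961 and 0.777 CPM in set B and 0.583 and 0.459 CPM in set A of LDHi+lactate, 1.15 and 1.38 CPM in set B and 0.624 and 0.409 CPM in set A of LDHi, and 2.61 and 2.90 CPM in set B and 1.66 and 1.28 CPM in set A of control. The 2 sets did not overlap in any group for this gene.

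**Figure D4:**
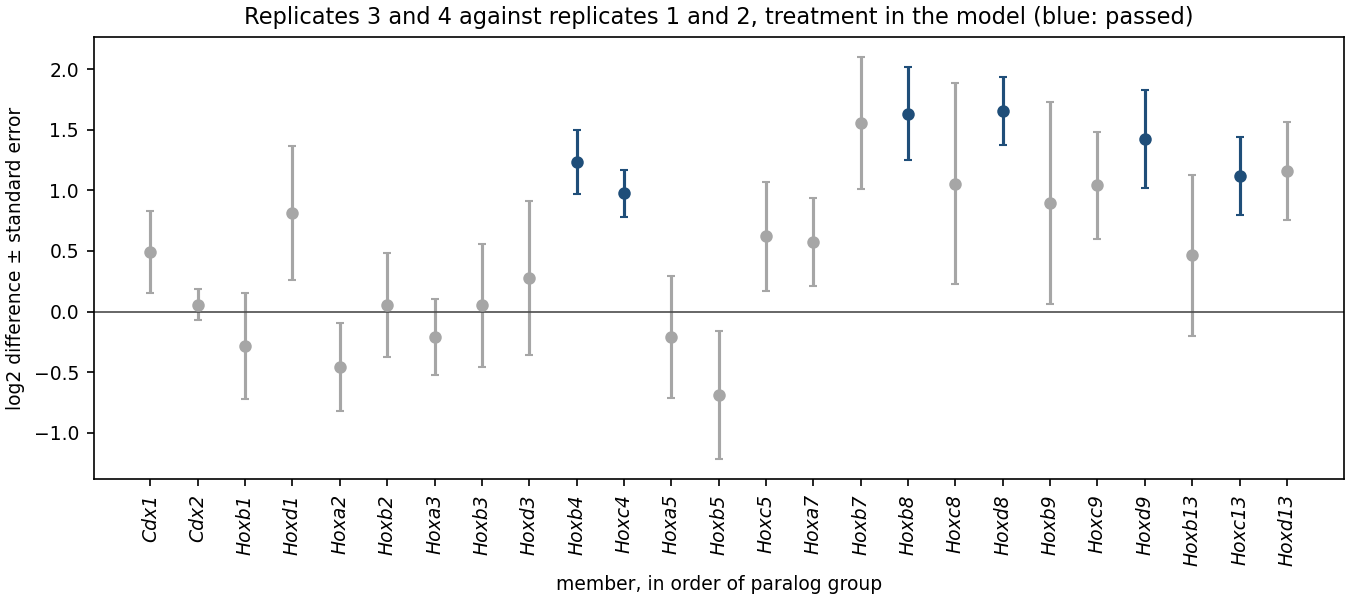
log2 difference ± SE of set B (replicates 3 and 4) against set A (replicates 1 and 2), treatment in the model, for the tested members reported, ordered by paralog group. Blue points passed, all of them at paralog group 4 or beyond, from 0.97 for Hoxc4 to 1.66 for Hoxd8. Other members at paralog group 4 or beyond did not pass, and a dependence on position was not tested.

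For the members called over both sets together, the sign within each set was nearly fixed by that choice, and their values are given as a description. In set A alone and set B alone the log2 fold changes of LDHi against control were 1.17 and 1.01 for Cdx2, -1.73 and -2.16 for Hoxa2, -1.24 and -2.34 for Hoxa3, -2.70 and -2.34 for Hoxb1, -2.08 and -2.28 for Hoxb2, -2.72 and -3.65 for Hoxb3 and -3.03 and -4.74 for Hoxd3. No member passed within a single set, where 2 libraries stood against 2. Of the 21 members with a value in both sets, 12 were negative in both and 5 positive in both. The other 4 ran opposite ways in set A and set B, Hoxb9 with 1.37 and -2.35, Hoxb13 with -0.77 and 3.06, Hoxc9 with 0.80 and -1.01 and Hoxd9 with 0.29 and -1.88. The interaction of treatment and set called no member for LDHi against control (0 of 26 by edgeR and 0 by DESeq2), where 3 members, Hoxb9, Hoxb13 and Hoxd9, had an unadjusted p under 0.05 (0.00441 for Hoxb9, adjusted p = 0.890 by edgeR).

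Of the 9 TALE cofactors of Hox proteins, all tested, 3 fell in LDHi without the block (2.18% of all genes were lower) and 7 with it (10.1% of all genes), and none rose. The median log2 fold change was -0.50. Pbx4 (-0.41 ± 0.23) and Pknox1 (0.10 ± 0.13) passed in neither fit. Meis1, a cofactor in retinal and hindbrain progenitors, fell by 1.92 ± 0.33 on the log2 scale (adjusted p = 0.0133 by edgeR), Meis2 had -0.97 ± 0.12 (adjusted p = 0.00699) and Pknox2 -0.63 ± 0.15 (adjusted p = 0.0375). With lactate added, Meis1 (1.18), Meis2 (0.45) and Pbx3 (0.54) were higher than in LDHi with the block, 3 of 9 where 0.57% of all genes were higher. Against control, 5 of the 9 were lower in LDHi+lactate with the block (3.87% of all genes).

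Of 15 genes of retinoic acid synthesis, breakdown and response, 7 fell in LDHi without the block (2.18% of all genes were lower) and 12 with it (10.1% of all genes), with a median log2 fold change of -1.30. Among them were Crabp1, a retinoic acid-binding protein, at -1.25 ± 0.20 (adjusted p = 0.0125 by edgeR), Dhrs3, a retinal reductase, at -1.30 ± 0.22 (adjusted p = 0.0133), Rara, a retinoic acid receptor, at -0.62 ± 0.11 (adjusted p = 0.0146) and Stra6, a retinol transporter, at -2.13 ± 0.38 (adjusted p = 0.0150). The list holds both producers and degraders of retinoic acid. With lactate added, 2 of the 15 were higher than in LDHi with the block (0.57% of all genes), among them Stra6 (1.40). Against control, 7 of the 15 were lower in LDHi+lactate with the block (3.87% of all genes). The list holds a gene that entered the test mainly through the control group, where it is high. The counts of lower genes in this list are therefore not read against the shares of all genes.

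None of 15 Polycomb genes passed in LDHi against control without the block, and with it 6 were higher (9.85% of all genes were), by log2 fold changes from 0.35 for Ezh1 to 0.78 for Cbx7. Of 8 Trithorax group and related activators none passed without the block, and Kmt2b (0.19), Kdm6a (0.18) and Wdr5 (0.19) were higher with it. Of 17 tested axial elongation genes, none passed without the block, while Sp5 and Fgf4 were higher and Wnt5a and Hes7 lower with it. None of 10 Wnt targets, Cdx1 among them, passed without the block, and Notum (1.25) and Sp5 (0.65) were higher and Tcf7 (-0.36) lower with it. Of 5 ParaHox and cluster-linked homeobox genes 4 were tested, and none passed in either fit (median log2 fold change -0.40, none with an unadjusted p under 0.05). Of 10 hindbrain segment regulators, Meis2 fell without the block, and 2 were lower with it. Beside these counts, 2.18% of all genes were lower without the block, and 10.1% were lower and 9.85% higher with it. The 2 higher and 2 lower of 17 axial elongation genes are near the blocked shares and are not read as a response of that list.

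Among the other genes within the clusters, 7 were tested. Gm53, a long noncoding RNA between Hoxb13 and Hoxb9, rose in LDHi (1.40 ± 0.32, adjusted p = 0.0345 by edgeR). It had 117, 143, 111 and 87 counts in the LDHi libraries, against 60, 61, 34 and 40 counts in control. Hotairm1, an antisense RNA of the Hoxa cluster, Hoxaas2, Gm15050, Hoxb3os and Haglr were lower with the block only, with blocked log2 fold changes of -1.24, -2.66, -2.47, -1.93 and -2.17. These are 5 of the 7, where 10.1% of all genes were lower with the block. Gm15050 had 0 to 0.184 and Haglr 0.0480 to 0.322 CPM in LDHi, against 0.307 to 0.929 and 0.348 to 1.28 CPM in control. Both entered the test mainly through control, so the count is not read against that share. The 16 nearest protein-coding genes flanking the clusters had a median log2 fold change of -0.03, and Calcoco2, on the Hoxb13 side of the Hoxb cluster, was the only 1 called without the block (1.53 ± 0.25, adjusted p = 0.0127 by edgeR). With the block 2 of the 16 were lower and 1 was higher, where 10.1% of all genes were lower and 9.85% higher.

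Markers of other cell types moved in the same comparisons, and their part in the Hox and Cdx values was not tested. Mesoderm markers (7 of 9 tested) had 3 lower in LDHi, Foxc1, Foxc2 and Twist1, and 2 with positive values that did not pass, T, a marker of early mesoderm (1.82 ± 0.76, adjusted p = 0.242 by edgeR), and Tcf15 (0.10 ± 0.44), with a summed level over the list of 10.7 to 35.9 CPM in LDHi+lactate, 14.8 to 20.6 CPM in LDHi and 33.2 to 156.6 CPM in control. With the block 4 of the 7 mesoderm markers were lower. Neural crest markers had 2 of 6 lower in LDHi, Ets1 and Twist1, and 3 with the block, while Foxd3 had a positive value that did not pass (0.52). Their summed levels were 30.9 to 73.7, 38.7 to 46.6 and 38.0 to 238.7 CPM in the same order of groups. Twist1 is on both the mesoderm and the neural crest list and is counted and summed in both. It had 94.5 CPM in control replicate 4, which is part of the upper end of both control ranges. Spinal cord and hindbrain neural markers had none of 8 called without and 2 lower with the block, with summed levels of 43.5 to 106.0, 55.6 to 96.6 and 67.3 to 167.8 CPM. Retinal progenitor markers had 3 of 6 lower without the block, Rax, Six3 and Six6, and all 6 lower with it. Pluripotent cell markers had 4 of 6 higher without the block, Nanog, Zfp42, Klf4 and Esrrb, and all 6 higher with it. Their summed levels were 438.8 to 908.3 CPM in LDHi+lactate, 513.8 to 952.8 CPM in LDHi and 205.5 to 434.8 CPM in control. For the cell types in which Cdx2 is a master regulator, none of 10 trophectoderm and none of 9 gut endoderm markers passed without the block, and with it 1 (Tfap2c) and 4 (Sox17, Foxa2, Epcam and Hnf4a) were higher. Beside these counts, 2.18% of all genes were lower and 0.909% higher in LDHi without the block, and 10.1% lower and 9.85% higher with it. No marker on these lists was at 0 in all libraries.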

How the data were processed

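Whole eye organoids of 4 independent experiments were sequenced as bulk RNA. Per the labels, the authors trimmed reads (cutadapt 1.13), aligned them (STAR) to mm10 and counted them per gene (HTSeq 0.6.1p1), and deposited raw counts, 1 table per library. Neither the annotation nor the counting mode is stated in the sources used here. Of 54232 gene IDs, 54165 matched GENCODE vM21, which gave symbols and positions. Counts of all 12 libraries were fitted with edgeR 4.0.16 (filterByExpr, TMM, quasi-likelihood), p-values adjusted over 17721 genes, threshold 0.05. The replicate number was added as a block: deviations of same-numbered libraries correlated at 0.329 to 0.634 in 12 pairs, and of others at -0.544 to 0.197 in 36. DESeq2 1.42.0, other scalings and filters, a set term, single sets and left-out libraries were alternatives. CPM used a prior count of 2 in the exact permutation tests. Named genes were the Cdx genes, all members called in any fit, the 2 highest per cluster in control, and, for lists, up to 4 called genes with the smallest adjusted p and up to 2 others; 1 member and 2 list genes that this rule would name are not reported here. Members and lists were chosen with earlier results of these data known. The fits were tested on simulated data. Counting error only is covered by the limits given for 0 counts, taken as 3 counts.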

Additional observations from a re-analysis of the deposited data

Results flagged for a closer look

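Of 75 groups of 4 libraries examined (25 members in 3 groups), 6 held a library whose distance from the others was large for a group of 4, where chance gives about 1 in 20. Hoxb9 in control replicate 4 was 11.5 CPM, against 0.328 to 1.997 CPM in the other control libraries. Hoxa3 in control replicate 4 was 5.11 CPM, against 2.52 to 2.84 CPM. Hoxc5 in control replicate 3 was 1.04 CPM, against 0.881 to 0.893 CPM. Hoxb7 in LDHi+lactate replicate 3 was 0.309 CPM, against 0.117 to 0.135 CPM. Hoxb13 in LDHi replicate 3 was 0.875 CPM, against 0.1201 to 0.192 CPM, and Hoxd3 in LDHi replicate 3 was 0.0 CPM, against 0.0646 to 0.0768 CPM.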

How the results depend on the processing

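In LDHi against control, the count of lower members was 6; it was 2 with at least 10 counts in every library, since Hoxa2, Hoxb2, Hoxb3 and Hoxd3 were then not tested, 10 with a set term, 11 with the replicate block and 11 by DESeq2 with that block, an alternative chosen after seeing the data. It was 0 in set A alone and 0 in set B alone, and the count of higher members, 1, was 0 in each set alone and 2 with the replicate block. The lower count ranged from 0 to 10 and the higher count from 1 to 2 when libraries or replicate numbers were left out. In LDHi+lactate against LDHi, 1 member was lower by DESeq2, with the replicate block and by both together, and 0 to 1 on leaving replicates out. In LDHi+lactate against control, 4 were lower by DESeq2, 7 with the replicate block and 8 by both together, when 1 was higher; leaving replicates out gave 0 to 3 lower and 0 to 1 higher. No fold change of a called member changed sign. The cause of the other differences was not tested. No test was made of the 16 members under the filter, so nothing is said of their change.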
